A study of Mus musculus with 18 samples.

Results

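The genes described are the axon guidance ligands and receptors of mouse: the semaphorins of classes 3 to 7 with the plexins and neuropilins that bind them, the ephrins with the Eph receptors, the Slits with the Robos, and the netrins with the Unc5 receptors. The members were found by gene symbol alone. The rule found 68 genes among the 32285 identifiers counted: 20 semaphorins, 9 plexins, 2 neuropilins, 8 ephrins, 14 Eph receptors, 3 Slits, 4 Robos, 4 netrins and 4 Unc5 receptors. RNA was sequenced from synovial fibroblasts sorted from the paws of wild-type (WT) mice, in 18 libraries of 6 groups with 3 libraries each. Cells of naive mice were left unstimulated (the naive group), or received in vitro FGF2 at 10 ng/mL, osteopontin (OPN) at 50 ng/mL, or both at these doses, over 3 days. Cells of mice with K/BxN serum-induced arthritis (STIA, passed on by serum of the arthritic K/BxN strain) were left unstimulated or received in vitro OPN at 50 ng/mL, also over 3 days. FGF2 is a fibroblast growth factor, and OPN is a secreted phosphoprotein, the product of Spp1, that binds integrins and CD44. The labels give neither the age and sex of the mice nor the sort gates, and they do not say how long unstimulated cells stayed in culture. Nothing in the labels ties the 3 libraries of a group to different mice, so the p-values measure the spread between these libraries, which may be technical.

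Guidance ligands were named for growing axons, which they repel or attract, but the same ligands act on migrating cells, vessels and immune cells. Semaphorins signal through plexins, and the secreted class 3 members mostly need a neuropilin as the ligand-binding subunit. Ephrins are membrane-bound, so Eph signalling needs cell contact and runs in both cells. Slits bind Robos, and netrins bind Dcc and the Unc5 receptors. Most of these receptors act on the actin cytoskeleton through small GTPases, and in joints several of them have been studied in synovial inflammation, vessel growth and bone remodelling.

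Library totals ran from 27527043 to 40357342 counts. Values are given as counts per 1000000 (CPM) on library sizes scaled by the trimmed mean of M values. Levels of different genes are compared only as CPM per kb of exon. Levels are means ± SD over 3 libraries, and log2 fold changes are given with their standard error (SE). Of the 68 genes 61 passed a filter on low counts and were tested among 15072 genes, by edgeR's quasi-likelihood test with Benjamini-Hochberg adjustment. A gene is said to have risen or fallen where the adjusted p lay below 0.05. Unc5d passed the filter only through the FGF2 libraries and Robo3 only through the libraries with FGF2 and OPN, so both had to differ somewhere. Both genes remain in the counts below, where the filter favoured a rise of Unc5d with FGF2 and of Robo3 with FGF2 and OPN. Sema5b, Epha6, Epha8, Epha10, Ephb1, Robo4 and Ntn5 were not tested, and no library held more than 13 counts of any of them. The second FGF2 library lay farther from its group (root mean square log2 distance 0.168 over all tested genes) than any other library (0.0938 to 0.145), and for genes named below whose FGF2 call or value turns on it (a changed call or a move of over 1.5 times) both values are given. All 10 fibroblast markers were detected, and their sum was 67732 to 76132 CPM in naive and 22304 to 23774 CPM in FGF2 libraries. With FGF2 the means of Col1a1, Col1a2, Col3a1, Pdgfrb and Thy1 were lower (Col1a1 4177 beside 35894 CPM) and those of Pdpn, Vim, Prrx1, Pdgfra and Dcn higher (Pdpn 850 beside 176 CPM). Endothelial markers summed to 13.0 to 24.8 CPM over all libraries, with Tie1 and Cldn5 at 3 counts or fewer. Macrophage markers summed to 12.7 to 14.2 CPM in naive and 47.6 to 52.8 CPM in FGF2 libraries. Most of this was Cd14, with a mean of 44.9 beside 5.85 CPM, and Cd68 was higher too (3.97 beside 1.21 CPM). Csf1r (0.492 beside 2.84 CPM) and Lyz2 (0.594 beside 3.75 CPM) were lower with FGF2. Ptprc stayed at or below 0.253 CPM, and Adgre1, C1qa and C1qb were at 3 counts or fewer in every library. The part of such cells in the FGF2 changes was not tested.

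Unstimulated naive fibroblasts expressed at least 1 ligand and 1 receptor of every family. Per kb of exon, plexins made up the largest sum at 127 ± 2.60 CPM per kb (SD, n = 3), ahead of the Eph receptors at 68.5 ± 2.05 and the semaphorins at 67.9 ± 1.89. Plxnb2, a receptor of class 4 semaphorins, led the plexins at 70.8 ± 2.18 CPM per kb, and Plxna1, a partner of the neuropilins, followed at 31.2 ± 0.335. Nrp2, which binds Sema3f, stood at 28.3 ± 0.572 CPM per kb, above Nrp1, which binds Sema3a, at 10.7 ± 0.367. Unc5b, a netrin receptor also known from vessels, stood at 41.1 ± 1.5 CPM per kb, far above Unc5c at 1.76 ± 0.0998. Among Eph receptors Ephb4 (19.6 ± 0.420 CPM per kb) and Epha2 (18.2 ± 1.16) led, and their levels did not differ beyond their spread. The leading semaphorins were the secreted Sema3c (15.4 ± 1.55 CPM per kb) and Sema3f (14.2 ± 0.983), which also did not differ beyond their spread. Efnb1, a ligand of EphB receptors, led the ephrins at 24.2 ± 1.28 CPM per kb, and Efna1 followed at 7.17 ± 0.687. Slit3 led the Slits at 24.8 ± 0.714 CPM per kb against 3.75 ± 0.0379 for Slit2. Robo1 was the main Slit receptor at 5.03 ± 0.0470 CPM per kb, with Robo2 at 0.0876 ± 0.0166. Ntn1 (5.44 ± 0.271 CPM per kb) and Ntn4 (5.43 ± 0.0558), a netrin of basement membranes, did not differ beyond their spread.

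FGF2 raised Sema7a more than any other of the 61 tested guidance genes, lowered its receptor Plxnc1 the most, and lowered the Slit3, Epha3, Epha4 and Ephb2 transcripts. In all 46 of the 61 tested guidance genes changed with FGF2 against naive cells, 21 higher and 25 lower, where 57.1% of all genes tested passed (29.1% higher and 28.1% lower). Changes of at least 2-fold were found for 24 of them, 10 higher and 14 lower (39.3%), against 19.9% of all genes. The median log2 fold change of the 61 was -0.10 and the median size 0.75, beside 0.01 and 0.36 over all genes. In 51 of the 61 the FGF2 and naive libraries did not overlap, beside 61.3% of all genes. In bulk RNA, fewer cells of a type and less RNA per cell cannot be told apart.

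**Figure D1:**
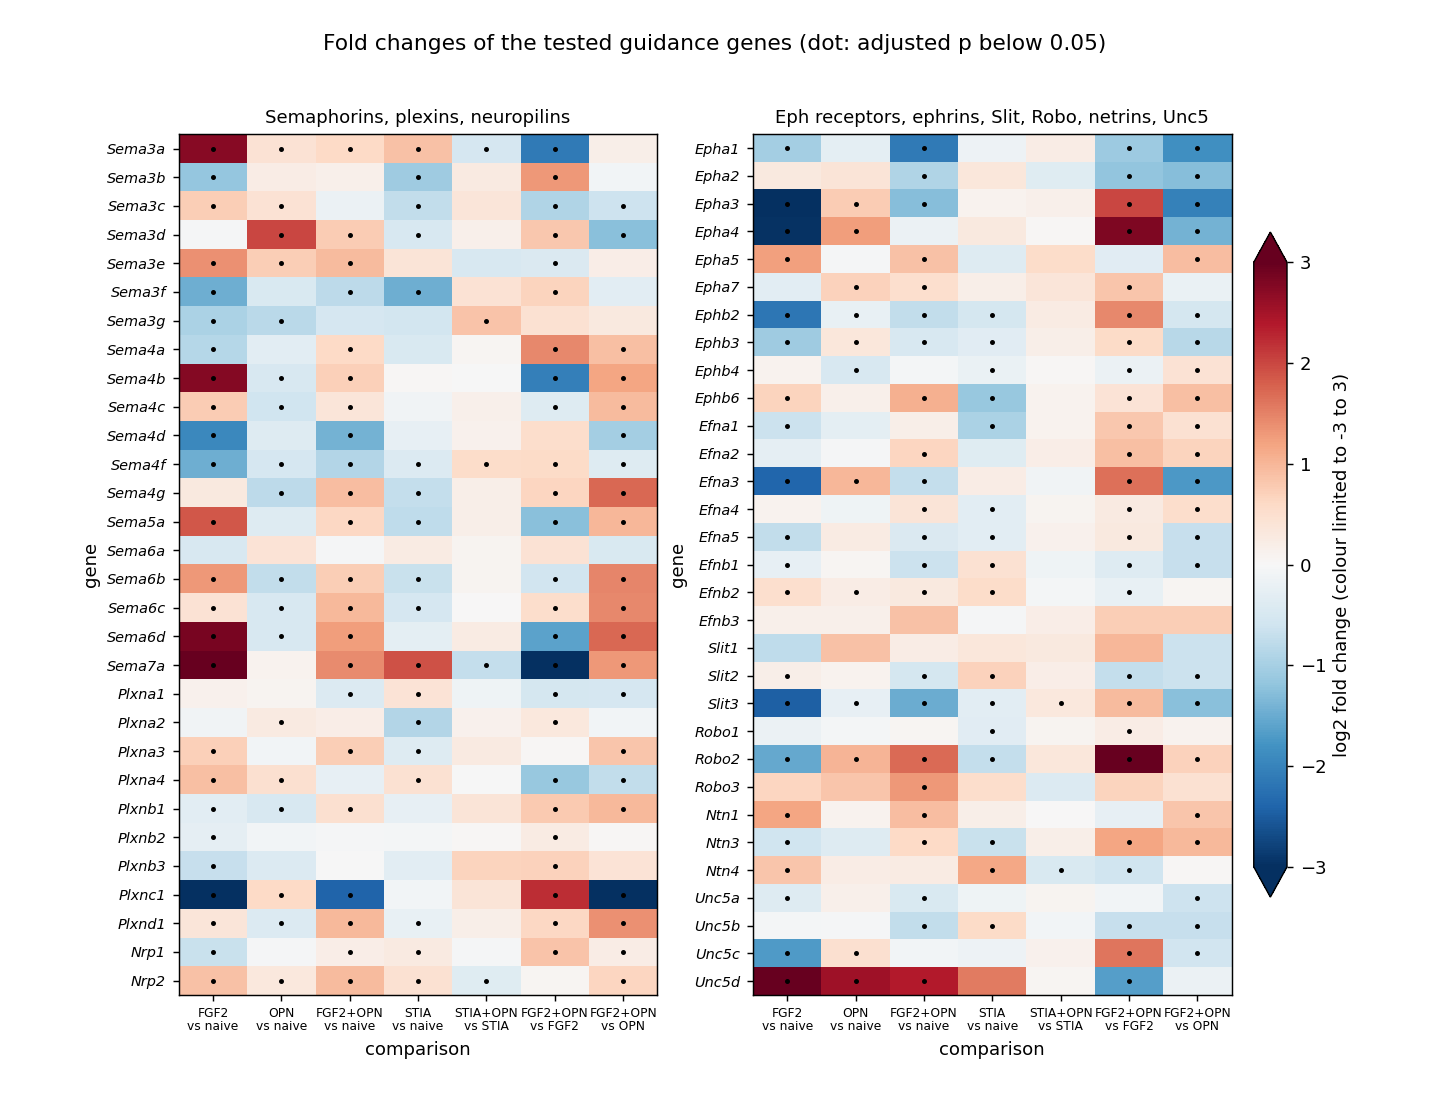
Log2 fold changes of the 61 tested guidance genes (lines of squares) in the 7 pairwise comparisons (columns), with colour limited to -3 to 3 and a dot where the adjusted p lay below 0.05. The FGF2 columns hold the strongest colours, with Sema7a at 5.54 and Plxnc1 at -4.62, and the column of OPN in STIA cells holds 7 dots.

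Sema7a encodes a semaphorin held at the membrane by a lipid anchor, which signals through plexin C1 and through beta-1 integrins. Its level in naive libraries was 17.2, 19.3 and 16.4 CPM, and in FGF2 libraries 732, 980.1 and 748 CPM. It stood at 20.9, 22 and 14.2 CPM with OPN, and at 43.8, 48.6 and 49.8 CPM with FGF2 and OPN. STIA libraries held 70.1, 65.3 and 62.5 CPM, and STIA libraries with OPN 43.5, 37.5 and 40.5 CPM. The FGF2 libraries thus stood above all others, STIA libraries above the naive and OPN libraries, and the OPN libraries overlapped the naive ones. The log2 fold change with FGF2 was 5.54 ± 0.16 (SE; adjusted p = 3.9e-15), a 46.5-fold rise. Per kb of exon Sema7a made up 7.58% to 8.45% of the summed semaphorin transcripts in naive libraries and 69.7% to 73.8% in FGF2 libraries. Plxnc1, whose protein is the plexin that Sema7a binds, moved the other way. It was counted at 18.2, 16.3 and 17.6 CPM in naive and at 0.733, 0.397 and 0.969 CPM in FGF2 libraries. With OPN it stood at 29.4, 21 and 28.4 CPM, and with both factors at 3.34, 4.26 and 2.27 CPM. Every FGF2 library lay below 1 CPM, the libraries with both factors lay between these and naive, and all OPN libraries lay above naive. The log2 fold change of Plxnc1 was -4.62 ± 0.24 (SE; adjusted p = 1.3e-12) with FGF2 and 0.59 ± 0.15 (SE; adjusted p = 0.0062) with OPN.

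**Figure D2:**
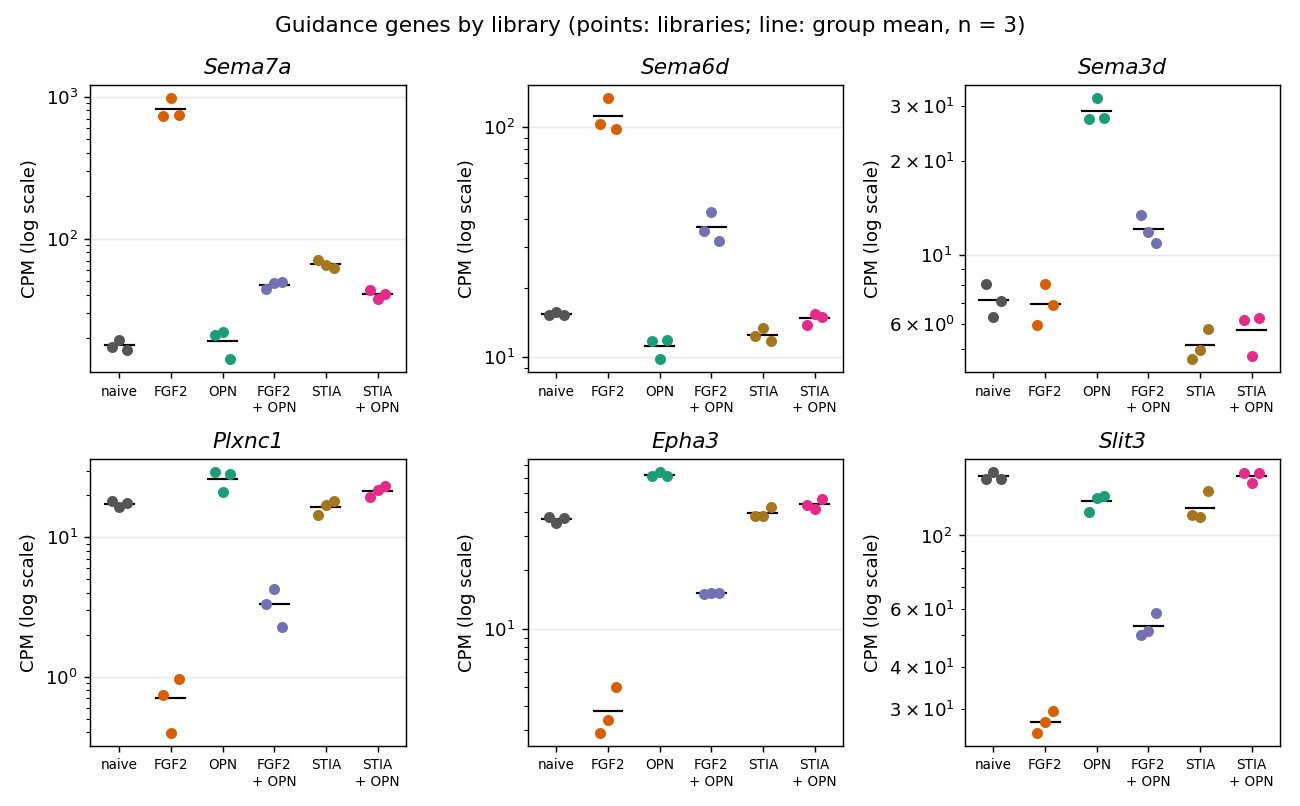
CPM (log scale) of 6 guidance genes in each of the 18 libraries, by group, with points for libraries and a line at the group mean (n = 3). Sema7a reaches 732 to 980.1 CPM in the FGF2 libraries only, Plxnc1 falls below 1 CPM there, and Sema3d is highest in the OPN libraries.

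The promoter windows of this ligand and receptor, 250 bases before to 50 bases after the RefSeq start site on GRCm38.p6, are shown because both genes moved furthest with FGF2. A window of Sema6b, which rose with FGF2 as described below, is added because it held the only AP-1 match among the promoters of guidance genes that rose at least 2-fold with FGF2. Capitals mark motif matches, on either strand.
Sema7a, chr9:57939862-57940161, plus strand: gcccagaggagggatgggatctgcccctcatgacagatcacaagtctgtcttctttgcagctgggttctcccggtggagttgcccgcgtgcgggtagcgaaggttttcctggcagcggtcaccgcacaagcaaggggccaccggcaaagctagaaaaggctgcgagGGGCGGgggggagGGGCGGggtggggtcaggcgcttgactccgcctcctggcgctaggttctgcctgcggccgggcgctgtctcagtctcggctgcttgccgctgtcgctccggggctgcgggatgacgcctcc
Plxnc1, chr10:94944796-94945095, minus strand: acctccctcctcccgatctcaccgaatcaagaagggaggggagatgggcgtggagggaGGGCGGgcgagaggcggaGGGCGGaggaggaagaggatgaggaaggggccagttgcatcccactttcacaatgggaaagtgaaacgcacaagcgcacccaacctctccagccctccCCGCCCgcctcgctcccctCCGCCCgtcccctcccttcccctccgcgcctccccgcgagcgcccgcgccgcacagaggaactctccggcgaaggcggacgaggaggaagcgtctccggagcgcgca
Sema6b, chr17:56133803-56134102, minus strand: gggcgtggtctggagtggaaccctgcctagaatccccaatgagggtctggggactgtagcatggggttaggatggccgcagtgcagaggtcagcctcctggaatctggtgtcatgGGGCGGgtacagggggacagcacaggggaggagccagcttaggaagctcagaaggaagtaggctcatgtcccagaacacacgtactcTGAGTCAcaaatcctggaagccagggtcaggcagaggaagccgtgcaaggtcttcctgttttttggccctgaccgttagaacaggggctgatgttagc
The motifs searched on both strands were the AP-1 site TGACTCA, the cAMP response element TGACGTCA, an ETS site CCGGAAGT, the E-box CACGTG and the GC box GGGCGG. The GC box was added after the windows had been read. The Sema7a window held 2 GC boxes and none of the other motifs. The Plxnc1 window held 4 GC boxes and none of the others. The Sema6b window shown held an AP-1 match 48 bases before the start site and 1 GC box. Its start site, at base 56133852, lies inside the gene, which spans 56123085 to 56140343. The Sema6b window at the 5' end of the gene (start site 56140343) held 1 GC box and no AP-1 match. Of 75 windows of 59 guidance genes, 2.67% held an AP-1 match (Sema4c and Sema6b), beside 5.20% of all 32851 windows of this length. No window of a guidance gene held the ETS letters, beside 3.89% of all windows. The GC box lay in 70.7% of the guidance windows and in 35.7% of all windows. The cAMP response element lay in 1.33% of the guidance windows and 1.79% of all windows, and the E-box in 6.67% and 7.15%. A match is a description of these letters and not a site.

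Among the ligands, 10 of 19 tested semaphorins rose with FGF2 and 6 fell, beside 29.1% of all genes that rose and 28.1% that fell. The members of class 3, which are secreted, split: Sema3a, Sema3c and Sema3e rose, while Sema3b, Sema3f and Sema3g fell. Sema3a, a repellent that binds Nrp1, rose from 13.9, 12.5 and 13.9 CPM to 82.7, 93.5 and 91.1 CPM, a log2 fold change of 2.73 ± 0.11 (SE; adjusted p = 1.8e-15). The FGF2 libraries stood above those of every other group. Sema3e, which binds Plxnd1 without a neuropilin, was counted at 13.3, 11.3 and 13.1 CPM in naive and 37.8, 23.3 and 36.9 CPM in FGF2 libraries, with a log2 fold change of 1.37 ± 0.16. Sema3f, a ligand of Nrp2, was counted at 72.9, 79.6 and 69.5 CPM in naive and 21.5, 39.9 and 19.5 CPM in FGF2 libraries. Its log2 fold change was -1.46 ± 0.19 (SE; adjusted p = 7.7e-06), with the second FGF2 library the closest to naive (-1.85 without it). Sema3b, which lies 72.3 kb from Sema3f on chromosome 9, was counted at 43.8, 53.5 and 45.0 CPM and 19.4, 25.0 and 19.7 CPM, a log2 fold change of -1.15 ± 0.12. Sema3c, 1 of the 2 leading semaphorins of naive cells, rose by 0.73 ± 0.12 on the log2 scale to 182 ± 32.3 CPM. The length-scaled sum of class 3 was 43.5 ± 1.89 CPM per kb in naive and 46.3 ± 2.25 in FGF2 libraries.

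Of the membrane-bound semaphorins of classes 4 to 7, 7 of 12 tested were higher with FGF2 and 3 lower, beside the same 29.1% and 28.1% of all genes. Sema6d, a ligand of plexin A1, was counted at 15.2, 15.7 and 15.3 CPM in naive and 103, 134 and 97.9 CPM in FGF2 libraries. Its log2 fold change was 2.86 ± 0.12 (SE; adjusted p = 5.3e-15). Sema4b was counted at 15.1, 16.7 and 15.6 CPM in naive and 100.5, 114 and 105 CPM in FGF2 libraries, with a log2 fold change of 2.75 ± 0.08 (SE; adjusted p = 4.7e-18). For both genes the FGF2 libraries stood above all other libraries. Sema5a, which carries thrombospondin repeats outside the cell, was counted at 10.8, 9.57 and 10.7 CPM and 28.8, 52.6 and 32.1 CPM (1.87 ± 0.17 on the log2 scale, and 1.56 without the second FGF2 library). Sema6b was counted at 9.56, 9.60 and 11.3 CPM and 22.9, 28.9 and 23.4 CPM (1.30 ± 0.13), and Sema4c rose by 0.75 ± 0.10. Sema6c rose by 0.43 ± 0.14, but its call was lost without naive replicate 2 (adjusted p = 0.067) or FGF2 replicate 2 (adjusted p = 0.061). The fallers were Sema4f, counted at 10.9, 10.2 and 10.5 CPM in naive and 4.40, 3.97 and 3.18 CPM in FGF2 libraries (-1.45 ± 0.14), Sema4d, a ligand of Plxnb1 with at most 1.17 CPM in any library (-1.94 ± 0.42), and Sema4a. Sema4a, a ligand known from T cell activation, was counted at 1.26, 1.06 and 1.04 CPM and 0.600, 0.793 and 0.485 CPM (-0.85 ± 0.28), and its call was lost without FGF2 replicate 3 (adjusted p = 0.067). The summed class 6 transcripts stood at 5.50 ± 0.390 CPM per kb in naive and 18.8 ± 2.89 in FGF2 libraries, and those of class 4 at 13.0 ± 0.155 and 32.7 ± 3.5.

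**Figure D3:**
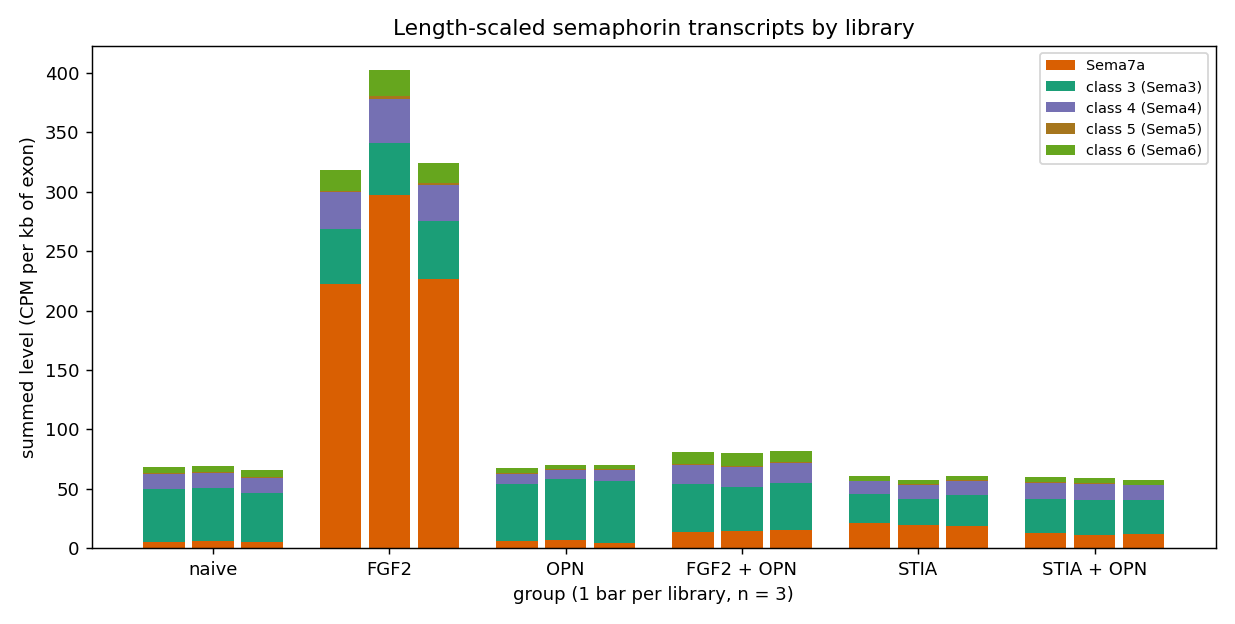
Summed semaphorin transcripts per library (CPM per kb of exon, stacked by class, 1 bar per library, 3 per group). The FGF2 libraries reach 318 to 403 CPM per kb, of which Sema7a is the largest share, and the other libraries lie between 57.6 and 82.3.

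Of the 8 ephrins, Efnb2 rose with FGF2, and Efna1, Efna3, Efna5 and Efnb1 fell, beside 29.1% of all genes that rose and 28.1% that fell. Efna3, a lipid-anchored ephrin, was counted at 4.36, 3.26 and 4.66 CPM in naive and 0.767, 0.793 and 0.787 CPM in FGF2 libraries, a log2 fold change of -2.38 ± 0.19 (SE; adjusted p = 2.2e-10). Its exons share 344 bases (14.1%) with Gm15998 on the other strand, which had at most 12 counts in a library, and the sources used here do not give the strand setting of the counting. Efna1 fell to 8.42 ± 0.663 CPM from 13.1 ± 1.26 (-0.64 ± 0.12), and Efnb2, a ligand of Ephb4, rose to 45.3 ± 2.72 CPM from 31.7 ± 1.02 (0.51 ± 0.07). Slit3, the leading Slit of naive cells, was counted at 148, 156 and 149 CPM in naive and 25.4, 27.4 and 29.6 CPM in FGF2 libraries. With OPN it stood at 118, 130.2 and 132 CPM and with both factors at 50.2, 51.5 and 58.5 CPM. The FGF2 libraries were the lowest of all, and no naive library overlapped any treated group of naive cells. The log2 fold change of Slit3 with FGF2 was -2.46 ± 0.08 (SE; adjusted p = 3.4e-17). Slit2 differed by 0.19 ± 0.07, and its call was lost without naive replicate 2 (adjusted p = 0.055) or FGF2 replicate 2 (adjusted p = 0.16). The summed Slit transcripts stood at 28.7 ± 0.678 CPM per kb in naive and 8.85 ± 0.518 in FGF2 libraries.

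Ntn1, the founding netrin, was counted at 35.2, 35.1 and 32.2 CPM in naive and 58.1, 120.2 and 54.6 CPM in FGF2 libraries. The second FGF2 library stood far above the other two, which still exceeded every naive library. Its log2 fold change of 1.18 ± 0.23 (SE; adjusted p = 5.1e-04) dropped to 0.72 (adjusted p = 2.5e-08) without that library. A fit of only the 2 groups compared gave 1.16 with an adjusted p of 0.054. Ntn4 was counted at 20.2, 20.6 and 20.2 CPM and 40.0, 26.7 and 42.6 CPM, here with the second FGF2 library the lowest of the group (0.84 ± 0.12, and 1.02 without it). Ntn3 was counted at 6.34, 8.22 and 6.53 CPM in naive and 3.0, 6.05 and 4.97 CPM in FGF2 libraries. Its log2 fold change was -0.59 ± 0.19, and the call was lost without naive replicate 2 (adjusted p = 0.072) or FGF2 replicate 1 (adjusted p = 0.098). Ntn3 shares 89 exon bases with Tbc1d24 on the same strand, so some reads could belong to either gene.

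Among receptors, 7 of 28 tested rose with FGF2 and 13 fell, beside 29.1% and 28.1% of all genes. Among the Eph receptors 5 of 10 tested were lower, each by at least 2-fold, and Epha5 and Ephb6 were higher. Epha3, which prefers A-type ephrins, was counted at 37.7, 35.2 and 37.3 CPM in naive and 2.90, 3.37 and 5.0 CPM in FGF2 libraries. With OPN it stood at 61.3, 64.7 and 61.3 CPM and with both factors at 15.2, 15.3 and 15.4 CPM. All OPN libraries lay above naive, all FGF2 libraries at the bottom, and libraries with both factors in between. The log2 fold change of Epha3 was -3.28 ± 0.12 (SE; adjusted p = 1.3e-16) with FGF2. Epha4, which binds ephrins of both types, was counted at 4.67, 4.32 and 3.44 CPM in naive, 0.600, 0.496 and 0.485 CPM in FGF2, 9.69, 7.29 and 12.8 CPM in OPN and 3.24, 4.06 and 3.82 CPM in libraries with both. The FGF2 change of Epha4 was -2.97 ± 0.26 (SE; adjusted p = 8.6e-10). Ephb2 was counted at 90.4, 87.1 and 86.6 CPM in naive and 19.1, 18.3 and 20.9 CPM in FGF2 libraries (-2.18 ± 0.09, adjusted p = 1.9e-15). Ephb3 was counted at 55.0, 55.2 and 54.8 CPM and 25.3, 28.3 and 25.0 CPM (-1.07 ± 0.06). Epha1 was counted at 9.91, 11.8 and 7.96 CPM and 4.50, 5.19 and 4.88 CPM (-1.03 ± 0.16). Epha1 shares 236 exon bases (6.01%) with Zyx, which lies on the other strand and had up to 21383 counts in a library, so its level is uncertain where counting ignored strand. Epha5, at 1.10, 0.886 and 1.18 CPM in naive and 2.57, 2.48 and 2.39 CPM in FGF2 libraries, rose by 1.22 ± 0.25. Ephb6, whose kinase domain lacks activity, was counted at 28.1, 30.8 and 28 CPM and 42.8, 53.2 and 41.2 CPM (0.66 ± 0.09). Ephb4 did not pass the test (0.11, adjusted p = 0.084), but passed on library totals without TMM (0.19, adjusted p = 0.0027). Epha2 stood at 79.4, 90.1 and 85.6 CPM in naive and 117, 72.6 and 124 CPM in FGF2 libraries. Over all libraries Epha2 did not pass (0.30, adjusted p = 0.16). Without the second FGF2 library it rose by 0.50 (adjusted p = 0.0017), and it also passed with no filter on low counts (0.30).

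Of the 9 plexins 3 rose and 4 fell with FGF2, beside 29.1% and 28.1% of all genes, and only Plxnc1 changed 2-fold, where 19.9% of all genes did. Plxna4 was counted at 16.1, 15 and 14.9 CPM in naive and 27.1, 28.1 and 30.3 CPM in FGF2 libraries (0.89 ± 0.10), and Plxna3 rose by 0.71 ± 0.09. Plxnd1, the Sema3e receptor, rose by 0.36 ± 0.07 to 128 ± 15.7 CPM. The leading plexin, Plxnb2, fell by 0.28 ± 0.06 on the log2 scale. The 2 neuropilins parted: Nrp2 rose from 342, 329.7 and 332 CPM to 614, 602 and 639.6 CPM (0.89 ± 0.06, adjusted p = 4.6e-11), and Nrp1 fell from 109, 102 and 103 CPM to 66, 58.1 and 74.3 CPM (-0.66 ± 0.07, adjusted p = 2.3e-08). Neither gene's FGF2 libraries overlapped the naive ones. Of the other receptors, Unc5c was counted at 35.5, 31.7 and 34.0 CPM in naive and 11.7, 7.04 and 12.3 CPM in FGF2 libraries (-1.70 ± 0.15). Robo2 was counted at 1.55, 1.74 and 1.18 CPM and 0.600, 0.331 and 0.606 CPM (-1.53 ± 0.29), whereas Robo1 did not pass the test (-0.18, adjusted p = 0.082). Robo1 passed without the second FGF2 library (-0.30, adjusted p = 0.0031) and with no filter (adjusted p = 0.044). Unc5d was counted at 1.30, 0.958 and 1.21 CPM in FGF2 libraries, where each held 29 to 40 counts. The naive libraries held 6 counts in all (0 to 4 each), too few for a stable fold. Summed over all 33 receptors, the length-scaled level was 283 ± 4.74 CPM per kb in naive and 289 ± 4.77 in FGF2 libraries, while the 35 ligands summed to 160.2 ± 2.60 and 424 ± 52.1. Most of the ligand gain was Sema7a, at 5.35 ± 0.451 and 249 ± 42.1 CPM per kb. The other semaphorins (62.5 ± 1.53 and 99.8 ± 5.01) and netrins (12.3 ± 0.436 and 23.0 ± 3.86) were higher, and ephrins (51.4 ± 0.241 and 43.7 ± 0.957) and Slits lower. Of 33 tested ligands 14 rose and 12 fell.

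OPN on naive cells raised Sema3d most among guidance genes above 1 CPM, together with Epha4, Robo2, Efna3 and Epha3, and lowered 7 membrane-bound semaphorins by less than 2-fold. In all 30 of 61 guidance genes changed with OPN, 17 higher and 13 lower, where 31.7% of all genes passed (15.2% higher and 16.5% lower). The 5 changes of at least 2-fold (Sema3d, Epha4, Efna3, Robo2 and Unc5d) were rises (8.20% of the 61, beside 4.09% of all genes). The libraries did not overlap in 41 of the 61, beside 46.4% of all genes. The median log2 fold change was 0.09, beside 0.00 over all genes. Receptors were 11 higher and 4 lower of 28 tested, and ligands 6 higher and 9 lower of 33.

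Sema3d, a secreted semaphorin, was counted at 8.05, 6.31 and 7.09 CPM in naive, 5.93, 8.06 and 6.87 CPM in FGF2 and 27.4, 31.9 and 27.5 CPM in OPN libraries. With both factors it stood at 13.5, 11.9 and 10.9 CPM. In STIA libraries it stood at 4.63, 4.95 and 5.79 CPM, and with OPN added at 6.19, 4.72 and 6.28 CPM. Only the groups of naive cells that received OPN lay above all naive libraries, and the FGF2 libraries overlapped naive. The log2 fold change of Sema3d with OPN was 2.01 ± 0.13 (SE; adjusted p = 2.9e-10). Its neighbours on chromosome 5, Sema3a (536.5 kb away) and Sema3e (422.7 kb beyond Sema3a), changed by 0.43 ± 0.11 and 0.75 ± 0.16 with OPN. The Sema3a call was lost without OPN replicate 2 (adjusted p = 0.051). In all 4 of 7 class 3 semaphorins rose with OPN (Sema3a, Sema3c, Sema3d and Sema3e) and Sema3g fell (-0.80), beside 15.2% of all genes that rose and 16.5% that fell. The Sema3g call was lost without OPN replicate 2 (adjusted p = 0.054). Sema3f stood at 53.3, 49.9 and 58.0 CPM with OPN, below every naive library, but did not pass the test. It passed with no filter and in a fit of only the 2 groups (-0.46, adjusted p = 1.8e-04). Of the 12 tested semaphorins of classes 4 to 7, none rose with OPN by edgeR, 0 also at an unadjusted p below 0.05 and by DESeq2. In these classes 7 fell, beside the same 16.5% of all genes: Sema4b, Sema4c, Sema4f, Sema4g, Sema6b, Sema6c and Sema6d. Their log2 fold changes ran from -0.78 (Sema4g) to -0.47 (Sema6d), and that of Sema6c was lost without naive replicate 3 (adjusted p = 0.065) or OPN replicate 2 (adjusted p = 0.082).

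Among receptors with OPN, Epha4 rose by 1.25 ± 0.18 (SE; adjusted p = 1.7e-05) and Epha3 by 0.76 ± 0.09 (SE; adjusted p = 1.7e-06). Their per-library values above show OPN libraries clear of naive for both genes. Epha7 rose by 0.70 ± 0.14 to 5.84 ± 0.0431 CPM, and Ephb3 rose by 0.34 ± 0.06. Ephb4, 1 of the 2 leading Eph receptors, fell from 90.9, 93.2 and 89.3 CPM to 64.2, 63.3 and 68.1 CPM (-0.48 ± 0.06). Efna3, a ligand of these EphA receptors, was counted at 9.24, 7.44 and 8.0 CPM with OPN, above every naive library (1.01 ± 0.15, adjusted p = 1.8e-05). Epha2, the other leading Eph receptor, stood at 116, 117 and 98.5 CPM with OPN, above every naive library, but did not pass the edgeR test. It passed by DESeq2 (0.385, adjusted p = 0.032), with no filter and in a fit of only the 2 groups (adjusted p = 8.6e-04). Robo2 was counted at 2.46, 2.83 and 3.78 CPM with OPN, also above every naive library (1.01 ± 0.23, adjusted p = 0.002). Unc5c rose by 0.47 ± 0.13, with the call lost without naive replicate 2 (adjusted p = 0.055). Unc5d held 8 to 26 counts in each OPN library, and its call was lost without naive replicate 2 (adjusted p = 0.066) or OPN replicate 2 (adjusted p = 0.093). Among plexins, Plxna4 (0.49 ± 0.11) and Plxnc1 rose and Plxnb1 (-0.49 ± 0.12) and Plxnd1 (-0.40 ± 0.08) fell. Markers of Schwann cells and neurons were lower with OPN: the 11 genes summed to 83.6 to 99.5 CPM in OPN and 124 to 129 CPM in naive libraries, with Sox10, Cdh19, Erbb3 and Ngfr detected and Elavl4 and Snap25 at or below 0.17 CPM. They also differed with FGF2 (78.6 to 87.9 CPM) and with both factors (133 to 146 CPM). Sema3g, Sema4f and Plxnb1 fell with FGF2 and with OPN, and Plxnb3 fell with FGF2 (-0.69) and stood at -0.41 with OPN (adjusted p = 0.094). Osteoclast and osteoblast markers, mostly Ctsk, summed to 326 to 344 CPM in OPN and 212 to 233 CPM in naive libraries. The part of these cells in the values was not tested.

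FGF2 and OPN given together raised Robo2, Sema7a, Sema6d and Ephb6 and lowered Plxnc1, Epha1, Slit3 and Epha3 against naive cells. In all 45 of 61 guidance genes changed, 28 higher and 17 lower, where 49.8% of all genes passed (23.7% higher and 26.1% lower), and 11 changed by at least 2-fold (18%, beside 11.7% of all genes). The libraries did not overlap in 48 of the 61, beside 54.1% of all genes. On library totals without TMM scaling, the median of all genes moved from -0.01 to 0.14 and the split of the guidance genes became 32 higher and 15 lower. Of 19 semaphorins 12 were higher and 3 lower. Robo2 was counted at 4.8, 5.12 and 4.58 CPM, above all libraries of the other groups, with a log2 fold change of 1.70 ± 0.23 (SE; adjusted p = 1.8e-06). Epha1 was counted at 1.93, 2.33 and 2.59 CPM, below every other group (-2.12 ± 0.17, adjusted p = 1.2e-09). Epha2 stood at 44.3, 37.2 and 55.6 CPM, below naive as well (-0.90 ± 0.18). Ephb6 stood at 56.8, 61.8 and 63.0 CPM (1.06 ± 0.09) and Plxnd1 at 198, 212 and 182 CPM (0.98 ± 0.07), both above naive. Unc5b, the leading netrin receptor, fell from 247, 264 and 261 CPM to 158, 147 and 159 CPM (-0.73 ± 0.06, adjusted p = 3.4e-10), although neither FGF2 alone (-0.05, adjusted p = 0.48) nor OPN alone (-0.03, adjusted p = 0.67) passed the test. Robo3 and Unc5d, with 11 to 24 counts in each library with both factors, and Sema4a (0.59) passed as well. Robo3 and Unc5d are among the 6 rises of at least 2-fold. The filter favoured the rise of Robo3, which entered the test only through the libraries with both factors. The Robo3 call was lost without naive replicate 2 (adjusted p = 0.053), naive replicate 3 (adjusted p = 0.16) or FGF2 plus OPN replicate 3 (adjusted p = 0.094), that of Unc5d without naive replicate 2 (adjusted p = 0.064), and that of Sema4a without naive replicate 1 (adjusted p = 0.058), naive replicate 2 (adjusted p = 0.12), naive replicate 3 (adjusted p = 0.13), FGF2 plus OPN replicate 1 (adjusted p = 0.069) or FGF2 plus OPN replicate 3 (adjusted p = 0.24).

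Against FGF2 alone, the libraries with both factors held less Sema7a, Sema3a, Sema4b and Sema6d and more Robo2, Epha4, Plxnc1 and Epha3. In all 50 of 61 genes differed, 30 higher and 20 lower, where 58.4% of all genes passed (27.3% higher and 31.2% lower), and 19 differed at least 2-fold (31.1%, beside 16.9% of all genes). The libraries did not overlap in 49, beside 60.3% of all genes. The log2 difference was -4.11 ± 0.14 (SE; adjusted p = 1.8e-13) for Sema7a, -2.13 ± 0.10 for Sema3a, -2.05 ± 0.07 for Sema4b, -1.60 ± 0.11 for Sema6d and -1.26 ± 0.16 for Sema5a. Robo2 was higher by 3.22 ± 0.26 (SE; adjusted p = 4.9e-10), Epha4 by 2.80 ± 0.26, Plxnc1 by 2.21 ± 0.28 and Epha3 by 2.01 ± 0.12. All 5 A-type ephrins were higher with both factors than with FGF2 alone, from 0.28 (Efna4) to 1.66 (Efna3), although the 2 smallest calls rested on single libraries: Efna4 was lost without FGF2 replicate 1 (adjusted p = 0.14), FGF2 replicate 3 (adjusted p = 0.14), FGF2 plus OPN replicate 1 (adjusted p = 0.063) or FGF2 plus OPN replicate 3 (adjusted p = 0.17), and Efna5 without FGF2 replicate 2 (adjusted p = 0.19), FGF2 plus OPN replicate 1 (adjusted p = 0.09) or FGF2 plus OPN replicate 2 (adjusted p = 0.24). Ntn3 (1.17 ± 0.19), Sema3b (1.31 ± 0.12), Sema4a (1.44 ± 0.26), Ephb2 (1.44 ± 0.09) and Unc5c (1.61 ± 0.15) were higher too. Plxna4 (-1.14 ± 0.11), Epha1 (-1.10 ± 0.18) and Epha2 (-1.19 ± 0.18) were lower. Leaving out the second FGF2 library turned the Ntn1 difference from -0.26 (adjusted p = 0.34) to 0.20 (adjusted p = 0.027) and moved that of Sema3f from 0.67 to 1.07.

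Against OPN alone, FGF2 with OPN changed 44 of 61 guidance genes, 23 higher and 21 lower, where 56.5% of all genes passed (27.1% higher and 29.5% lower), and 17 changed at least 2-fold (27.9%, beside 13.2% of all genes). The libraries did not overlap in 45, beside 60.2% of all genes. Sema6d (1.72 ± 0.12), Sema4g (1.71 ± 0.17), Sema6b (1.47 ± 0.14), Sema6c (1.44 ± 0.14), Plxnd1 (1.38 ± 0.08) and Sema7a (1.31 ± 0.14) were raised most. Sema4g stood at 3.01, 2.16 and 3.18 CPM with OPN and 8.77, 9.51 and 9.00 CPM with both, and Sema6c at 5.60, 4.56 and 5.89 CPM and 16.7, 14.3 and 12.5 CPM. Neither gene's libraries overlapped. Plxnc1 (-3.0 ± 0.18), Epha3 (-2.03 ± 0.10), Epha1 (-1.83 ± 0.17), Efna3 (-1.73 ± 0.15) and Epha4 (-1.42 ± 0.18) were lowered most. Slit3 (-1.25 ± 0.08), Sema3d (-1.26 ± 0.12) and Epha2 (-1.28 ± 0.18) fell too.

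Whether FGF2 acted differently with OPN present was tested as an interaction, the FGF2 effect with OPN minus that without. It passed in 45 of 61 guidance genes, where 51.2% of all genes passed, and 29 differed at least 2-fold (47.5%, beside 17.8% of all genes). The effect was smaller in size with OPN in 29 of the 45 (64.4%) and larger in 16. Over all genes 58.1% of the called interactions went with a smaller effect. Sema7a had the largest difference, -4.23 ± 0.20 (adjusted p = 1.7e-11): FGF2 raised it by 5.54 without OPN and by 1.31 with OPN. The rise of Sema3a shrank from 2.73 to 0.17 (difference -2.56 ± 0.15) and that of Sema4b from 2.75 to 1.2 (-1.56 ± 0.11). The falls of Plxnc1, Epha3, Epha4, Ephb2 and Slit3 also shrank, with differences of 1.62 ± 0.33, 1.25 ± 0.15, 1.55 ± 0.33, 1.65 ± 0.12 and 1.21 ± 0.11. The FGF2 effects had opposite signs in 16 of the 45, and the share of opposite signs over all genes was not computed. In 9 of the 16 both effects passed the test: Sema3c, Sema4a, Plxna4, Plxnb1, Nrp1, Efna1, Slit2, Robo2 and Ntn3. In the others, Unc5d among them, an effect did not pass, so its sign is not settled. Robo2 fell by 1.53 with FGF2 alone and rose by 0.68 with FGF2 on top of OPN (difference 2.21 ± 0.36, adjusted p = 2.1e-05). The second of these effects was lost without OPN replicate 1 (adjusted p = 0.051). Nrp1 fell by 0.66 and rose by 0.22 (difference 0.88 ± 0.10). Plxna4 went from 0.89 to -0.73 (difference -1.62 ± 0.15), and Sema3c from 0.73 to -0.62 (-1.35 ± 0.17). The FGF2 effect without OPN was lost in single fits for Sema4a, Ntn3 and Slit2 as given above, and for Plxnb1 without naive replicate 1 (adjusted p = 0.069), naive replicate 2 (adjusted p = 0.13), FGF2 replicate 1 (adjusted p = 0.093) or FGF2 replicate 3 (adjusted p = 0.15). Epha2 fell with FGF2 on top of OPN (difference -1.58 ± 0.25), and its value with FGF2 alone turned on 1 library as given above. Across the 61 genes the 2 effects, which share no library, had a Pearson r of 0.63, a description over genes that are not independent. The Sema5a difference was -0.87, and -0.56 without the second FGF2 library.

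**Figure D4:**
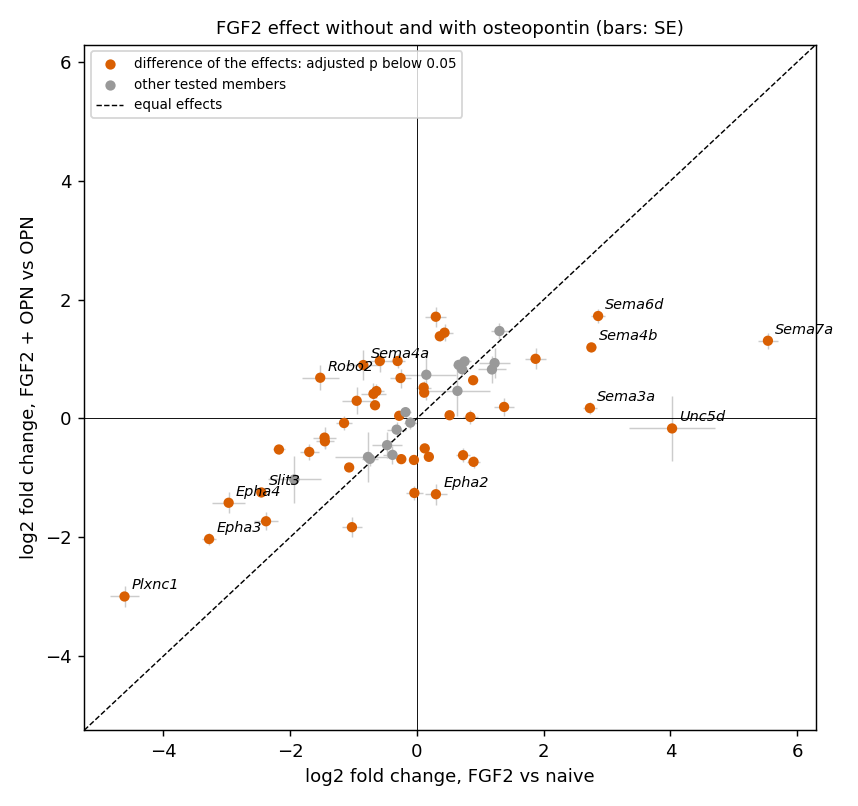
Log2 fold change with FGF2 in the absence (x axis) and presence (y axis) of OPN for the 61 tested guidance genes, with standard errors as bars, orange where the difference passed the test, and a dashed line of equal effects. Sema7a lies far below the line at 5.54 and 1.31, and Robo2, Sema4a and other genes lie in the upper left, where the sign changes.

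Cells of arthritic mice, compared unstimulated with naive cells, held more Sema7a and Ntn4 and less Sema3f, Ephb6 and Sema3b. In all 34 of 61 guidance genes differed, 11 higher and 23 lower, where 36.8% of all genes passed (18.6% higher and 18.2% lower). Of these 5 differed at least 2-fold (8.20%, beside 5.61% of all genes). The libraries did not overlap in 44 of the 61, beside 50.5% of all genes. Among ligands 6 of 33 tested were higher and 14 lower, and 9 of 19 semaphorins were lower. The medians were -0.20 for the 61 genes and -0.01 for all genes.

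Sema7a was 3.74-fold higher in STIA cells, with a log2 fold change of 1.90 ± 0.14 (SE; adjusted p = 3.4e-08). It made up 31.1% to 35.0% of the length-scaled semaphorin transcripts there. Sema3a rose from 13.9, 12.5 and 13.9 CPM to 27.4, 23.7 and 23.2 CPM (0.88 ± 0.11). The other class 3 changes were falls: Sema3f went from 72.9, 79.6 and 69.5 CPM to 26.2, 24.9 and 28.8 CPM (-1.47 ± 0.19, adjusted p = 3.0e-05) and Sema3b from 43.8, 53.5 and 45.0 CPM to 22.1, 19.2 and 26.8 CPM (-1.06 ± 0.12, adjusted p = 1.5e-06). Sema3c changed by -0.73 ± 0.12, and Sema3d by -0.49 ± 0.14 with the call lost without naive replicate 1 (adjusted p = 0.064) or STIA replicate 1 (adjusted p = 0.056). Summed class 3 transcripts were 43.5 ± 1.89 CPM per kb in naive and 23.8 ± 2.17 in STIA libraries. Sema4g, Sema5a, Sema6b and Sema6c fell by less than 2-fold (-0.72, -0.76, -0.67 and -0.50), and so did Sema4f (-0.41). The Sema6c call was lost without naive replicate 3 (adjusted p = 0.051), and that of Sema4f without naive replicate 1 (adjusted p = 0.061), STIA replicate 1 (adjusted p = 0.067) or STIA replicate 3 (adjusted p = 0.086).

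Ntn4 stood at 45.3, 44.1 and 45.8 CPM in STIA against 20.2, 20.6 and 20.2 CPM in naive libraries, without overlap (1.15 ± 0.12, adjusted p = 3.9e-07). The netrin receptor Unc5b rose as well, from 247, 264 and 261 CPM to 382, 381 and 385 CPM (0.57 ± 0.06, adjusted p = 6.5e-08). Slit2 rose from 96.2, 94.4 and 95.8 CPM to 144, 150.3 and 167 CPM (0.69 ± 0.07), and Slit3 fell by 0.31 ± 0.07. Efnb1 (0.45 ± 0.06) and Efnb2 (0.54 ± 0.07) rose, and among A-type ephrins Efna1 fell from 14.3, 13.3 and 11.8 CPM to 6.39, 7.71 and 6.25 CPM (-0.96 ± 0.12, adjusted p = 3.6e-06). All 4 tested EphB receptors were lower in STIA cells, beside 18.2% of all genes. Ephb6 led them and went from 28.1, 30.8 and 28 CPM to 14.2, 12.8 and 12.6 CPM (-1.13 ± 0.10, adjusted p = 2.3e-08), with Ephb2, Ephb3 and Ephb4 at -0.54, -0.33 and -0.20. None of the 6 tested EphA receptors passed the edgeR test (0 at an unadjusted p below 0.05), with log2 fold changes from -0.38 (Epha5) to 0.35 (Epha2). DESeq2 called 1 of them, Epha2 (adjusted p = 0.046). Epha2 also passed with no filter and in a fit of only the 2 groups (adjusted p = 2.7e-04). Plxna2, a receptor of class 3 and 6 semaphorins, fell from 51.4, 47.1 and 45.6 CPM to 26.5, 24.3 and 28 CPM (-0.87 ± 0.11), and Plxna1 (0.41 ± 0.07), Nrp1 (0.28 ± 0.07) and Nrp2 (0.45 ± 0.06) rose. Plxnc1 did not pass (-0.09, adjusted p = 0.7) at 14.3, 17 and 18 CPM. Robo2 (-0.71), Plxnd1 (-0.23), Efna4 (-0.33), Efna5 (-0.31) and Ntn3 (-0.67) were lower, and leaving out 1 library ended each of these calls: Robo2 without naive replicate 1 (adjusted p = 0.096), naive replicate 2 (adjusted p = 0.14), STIA replicate 1 (adjusted p = 0.12) or STIA replicate 2 (adjusted p = 0.13), Plxnd1 without naive replicate 2 (adjusted p = 0.058), naive replicate 3 (adjusted p = 0.052) or STIA replicate 1 (adjusted p = 0.078), Efna4 without naive replicate 2 (adjusted p = 0.19), STIA replicate 1 (adjusted p = 0.12) or STIA replicate 3 (adjusted p = 0.063), Efna5 without naive replicate 1 (adjusted p = 0.23), naive replicate 3 (adjusted p = 0.12), STIA replicate 1 (adjusted p = 0.16), STIA replicate 2 (adjusted p = 0.066) or STIA replicate 3 (adjusted p = 0.091), and Ntn3 without naive replicate 2 (adjusted p = 0.058). Skeletal muscle markers, almost all of it Acta1, summed to 56.5 to 73.9 CPM in STIA and 5.50 to 7.53 CPM in naive libraries. Pericyte and smooth muscle markers summed to 514 to 592 and 335 to 359 CPM, with higher means of Cspg4, Cnn1, Myh11 and Mcam in STIA libraries. The other markers of that list were not higher: Notch3 (15.3 beside 22.3 CPM), Abcc9 (0.939 beside 1.51 CPM) and Kcnj8 (0.126 beside 0.233 CPM) were lower, and Rgs5 stood at 2.12 beside 2.16 CPM. Myod1, Myog and Ckm stayed at or below 0.46 CPM in all libraries. The part of these cells in the values was not tested.

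OPN on STIA cells lowered Sema7a, Sema3a, Ntn4 and Nrp2 and raised Sema3g, Sema4f and Slit3, with 0 of them changed 2-fold, beside 0.226% of all genes. These 7 of 61 genes passed where 2.17% of all genes did, and the libraries did not overlap in 25, beside 25.4% of all genes. Sema7a went from 70.1, 65.3 and 62.5 CPM to 43.5, 37.5 and 40.5 CPM (-0.71 ± 0.13, adjusted p = 0.013), Sema3a from 27.4, 23.7 and 23.2 to 17.6, 16.4 and 18.4 CPM (-0.51 ± 0.11) and Ntn4 from 45.3, 44.1 and 45.8 to 32.1, 30.8 and 34.9 CPM (-0.47 ± 0.12). Nrp2 went from 467, 449.7 and 460.1 to 341, 339 and 395 CPM (-0.36 ± 0.06). Sema3g went from 1.76, 2.37 and 2.88 to 3.85, 5.20 and 3.47 CPM (0.85 ± 0.22), Sema4f from 7.63, 9.06 and 7.17 to 13.2, 12.2 and 9.75 CPM (0.56 ± 0.13) and Slit3 from 115, 113 and 136 to 154, 144 and 154 CPM (0.31 ± 0.07). In each of the 7 the libraries with OPN did not overlap those without. By edgeR at an unadjusted p below 0.05 there were 21. Leaving out 1 library gave 0 to 5 calls. Without STIA replicate 1 and without STIA with OPN replicate 2 there were 0, with 16 and 18 at an unadjusted p below 0.05. The share of all genes at the unadjusted threshold was not computed, so no wider effect is read from the unadjusted counts. DESeq2 on all libraries called 9. Markers of Schwann cells and neurons summed to 115 to 132 CPM in STIA libraries and 151 to 165 CPM with OPN, as Sema3g and Sema4f rose. Pericyte and smooth muscle markers summed to 514 to 592 CPM without and 396 to 444 CPM with OPN, with lower means of Cspg4, Cnn1, Myh11 and Kcnj8. The other markers of that list had higher means with OPN: Notch3 (21.4 beside 15.3 CPM), Mcam (35.1 beside 31.2 CPM), Rgs5 (2.58 beside 2.12 CPM) and Abcc9 (1.25 beside 0.939 CPM). Skeletal muscle markers, almost all of it Acta1, summed to 56.5 to 73.9 CPM without and 22.7 to 26.3 CPM with OPN. The part of these cells in the values was not tested.

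The effect of OPN differed between STIA and naive cells in 26 of 61 guidance genes, 14 with the higher and 12 with the lower effect in STIA cells, where 22.3% of all genes passed, and 7 differed at least 2-fold (11.5%, beside 4.86% of all genes). Of the 26, OPN alone had passed in naive cells for 21 and in STIA cells for 7. The 2 effects had opposite signs in 22, but the sign of an effect that did not pass is not settled. The share of opposite signs over all genes was not computed, so no reversal is read from this count. The median size of the OPN effect over the 61 genes was 0.38 in naive and 0.18 in STIA cells, beside 0.21 and 0.11 over all genes. Sema3d had the largest difference, with 2.01 in naive and 0.16 in STIA cells (difference -1.85 ± 0.19, adjusted p = 6.3e-07). Sema3g differed by 1.65 ± 0.31 (SE; adjusted p = 5.0e-04), from -0.80 to 0.85. Sema3e differed by -1.23 ± 0.23, Epha4 by -1.21 ± 0.26, Efna3 by -1.12 ± 0.21, Plxnb3 by 1.09 ± 0.26 and Sema4f by 1.05 ± 0.19. Nrp2 rose by 0.31 in naive cells and fell by 0.36 in STIA cells (difference -0.66 ± 0.09, adjusted p = 1.8e-05). Sema3a likewise went from 0.43 to -0.51 (difference -0.93 ± 0.15, adjusted p = 1.5e-04).

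**Figure D5:**
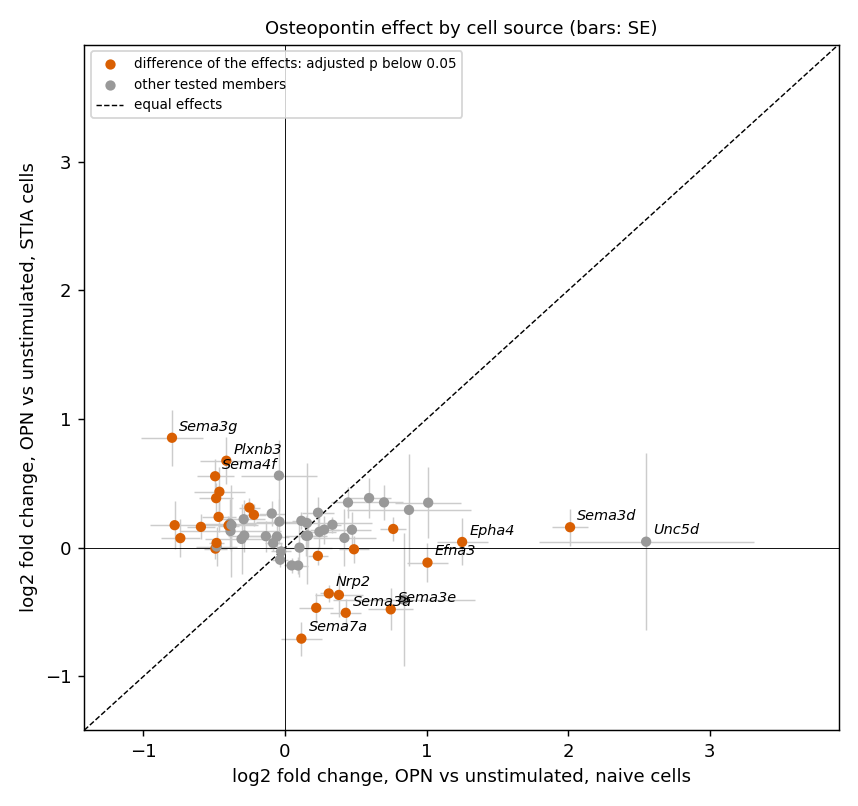
Log2 fold change with OPN in naive (x axis) and STIA cells (y axis) for the 61 tested guidance genes, with standard errors as bars, orange where the difference passed the test and a dashed line of equal effects. Sema3d lies at 2.01 and 0.16, and Sema3g and Sema4f lie in the upper left, lower in naive and higher in STIA cells.

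The other genes of these pathways were counted from lists of co-receptors and further ligands (27 of 32 tested) and of cytoplasmic partners (60 of 62 tested). With FGF2, 13 of the 27 co-receptors and ligands rose and 10 fell, and 33 of the 60 cytoplasmic partners rose and 14 fell, beside 29.1% of all genes that rose and 28.1% that fell. Plxdc1, a receptor with a plexin-like domain, rose to 33.6 ± 14.8 CPM from 1.27 ± 0.555 (log2 fold change 4.74 ± 0.31), with a wide spread among FGF2 libraries. Draxin, a secreted ligand of the netrin receptor Dcc, fell from 8.0 ± 0.840 to 0.253 ± 0.123 CPM (-4.94 ± 0.30). Ngef, a guanine nucleotide exchange factor that acts below EphA receptors, rose from 2.32 ± 0.473 to 29.1 ± 1.45 CPM (3.65 ± 0.15), and Chl1, a cell adhesion co-receptor, fell from 6.56 ± 0.742 to 0.650 ± 0.277 CPM (-3.34 ± 0.38). With both factors against FGF2 alone, 14 cytoplasmic partners were higher and 33 lower, beside 27.3% and 31.2% of all genes. In STIA cells 8 co-receptors and ligands were higher and 11 lower, and 18 cytoplasmic partners were higher and 9 lower, beside 18.6% and 18.2% of all genes. Chl1 (-3.22 ± 0.38) and Draxin (-1.99 ± 0.21) fell there too, and Kdr, a vascular endothelial growth factor receptor that binds neuropilins, rose (1.32 ± 0.23). With OPN on naive cells 9 cytoplasmic partners rose and 14 fell, beside 15.2% and 16.5% of all genes, and Chl1 fell by 2.09 ± 0.33.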

How the data were processed

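The authors deposited 1 table of unnormalised counts per gene, made with STAR and featureCounts on GRCm38 (mm10), per the submitters' processing notes. The sources used here do not give tool versions, annotation release, strand setting or how multi-mapping reads were counted. Libraries were made from total RNA and sequenced in read pairs, per the labels' protocols. The table's exon length per gene served to scale levels. Of 32285 identifiers 127 had no symbol (0.0294% of counts).

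Counts were tested with edgeR 4.0.16 in R 4.3.3: filterByExpr (count minimum 10), TMM, 1 mean per group over all 18 libraries, robust quasi-likelihood F tests, two-sided, with Benjamini-Hochberg adjustment over all genes. The procedure was tested on simulated data. Alternatives were DESeq2 1.42.0, library totals without TMM, no filter, a replicate block, a fit of only the groups compared, and leaving out each library in turn. CPM values use TMM-scaled library sizes. A marker with 3 counts or fewer in each library was taken as at the floor.

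The genes and lists were chosen with earlier results of these data known. By rule, genes were described with values where they passed the test with at least a 2-fold change in a pairwise comparison and 1 CPM in a group, together with the 2 leading members of each family in naive cells. Other genes named in the text were chosen after their values were seen. Promoter windows came from RefSeq on GRCm38.p6. Protein sequences were not used here, and 1 listed Schwann cell and neuron marker is not reported here and was left out of the sum.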

Additional observations from a re-analysis of the deposited data

Results flagged for a closer look

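In 26 of the 61 tested guidance genes the effect of OPN in STIA cells differed from its effect in naive cells, by edgeR's test of the difference itself, where 22.3% of all genes passed. The values are log2 differences, the effect in STIA cells minus that in naive cells. The difference was above 0 for 8 semaphorins: Sema3g (1.65), Sema4f (1.05), Sema4g (0.95), Sema3f (0.90), Sema6b (0.81), Sema4c (0.76), Sema6d (0.71) and Sema4b (0.48). It was also above 0 for the plexins Plxnb3 (1.09), Plxnb1 (0.87) and Plxnd1 (0.57), for Slit3 (0.56), and for Ephb4 (0.52) and Ephb2 (0.48). It was below 0 for 4 semaphorins, Sema3d (-1.85), Sema3e (-1.23), Sema3a (-0.93) and Sema7a (-0.82). It was below 0 as well for Epha4 (-1.21), Efna3 (-1.12), Epha2 (-0.75), Ntn4 (-0.69), Nrp2 (-0.66), Epha3 (-0.62), Plxna4 (-0.50) and Efnb2 (-0.29). For Epha2 the call was lost without any 1 library of the 4 groups except OPN replicate 3 (adjusted p from 0.054 to 0.095). For Efnb2 it was lost without naive replicate 1 (adjusted p = 0.058), naive replicate 3 (adjusted p = 0.084), OPN replicate 1 (adjusted p = 0.12), STIA replicate 2 (adjusted p = 0.069), STIA replicate 3 (adjusted p = 0.085), STIA with OPN replicate 1 (adjusted p = 0.084) or STIA with OPN replicate 2 (adjusted p = 0.077), for Sema3f without naive replicate 2 (adjusted p = 0.056), OPN replicate 2 (adjusted p = 0.057) or STIA replicate 2 (adjusted p = 0.058), and for Plxna4 without OPN replicate 3 (adjusted p = 0.056) or STIA with OPN replicate 2 (adjusted p = 0.062). Markers of Schwann cells and neurons, summed over 11 genes, went from 124 to 129 CPM to 83.6 to 99.5 CPM with OPN in naive cells and from 115 to 132 CPM to 151 to 165 CPM in STIA cells. Their part in these differences was not tested.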

How the results depend on the processing

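Of 6765 values for single genes under other settings 6443 kept the direction and the side of the threshold, 207 lost a call, 114 gained one and 1 turned, the Ntn1 difference between both factors and FGF2 alone (-0.26 over all libraries, 0.20 without FGF2 replicate 2, and no lower than -0.46 without any other 1 library). The calls with OPN in STIA cells rested most on the processing: 327 genes passed, but 948 without a filter, 1367 in a fit of only the 2 groups, 626 by DESeq2 and 38 to 218 without 1 library. Of the guidance genes 7 passed, against 15, 18, 9 and 0 to 5 in the same fits. The cause was not tested. Without 1 library the other counts of guidance genes ran from 42 to 46 with FGF2, 26 to 30 with OPN, 41 to 45 with both and 28 to 33 in STIA cells. Summed length-scaled levels on library totals without TMM were 430.6 in naive, 444.0 in OPN and 479 in libraries with both factors, beside 443.5, 453 and 447 CPM per kb. The same scaling moved the median of all genes by over 0.1 against naive (-0.01 to 0.14) and against OPN (-0.01 to 0.12) for the libraries with both factors, and their splits of guidance genes to 32 higher and 15 lower and to 28 higher and 19 lower. Over all genes these splits moved from 3573 higher and 3940 lower to 5253 and 2414, and from 4079 and 4443 to 5433 and 3060. Replicate numbers did not pair the libraries (45 pairs, correlations from -0.104 to 0.199, 2 above 0.1). With a replicate block 46 guidance genes passed with FGF2, 30 with OPN, 46 with both, 35 in STIA cells and 6 with OPN in STIA cells, out of 8509, 4601, 7366, 5409 and 292 genes. With the block 49 differed between both factors and FGF2 and 44 between both and OPN, and 45 interactions and 26 differences by source passed, out of 8676, 8399, 7587 and 3225 genes. Genes near 1 CPM (Sema4a, Sema4d, Epha5, Robo2, Unc5d) rest on few counts, which limits small changes.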

Other observations

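Several of the genes lie near one another. Efna1, Efna3 and Efna4 lie on chromosome 3 with gaps of 32.8 and 10.4 kb, and with FGF2 they changed by -0.64, -2.38 and 0.11 on the log2 scale (Efna4: adjusted p = 0.46). Sema3b and Sema3f, 72.3 kb apart on chromosome 9, fell together with FGF2 (-1.15 and -1.46) and in STIA cells (-1.06 and -1.47). Plxnb3 and Plxna3, 556.6 kb apart on chromosome X, changed by -0.69 and 0.71 with FGF2. Robo3 and Robo4 lie 553 bases apart, and Robo4 had at most 3 counts in any library. The Robo family was the least abundant of the receptor families per kb of exon in every group, from 4.11 ± 0.0816 CPM per kb in STIA to 5.58 ± 0.403 in libraries with both factors. Summed neuropilin transcripts were 39.0 ± 0.939 CPM per kb in naive, 59.0 ± 2.42 with FGF2 and 66.9 ± 0.501 with both factors. Summed Unc5 transcripts were 44.1 ± 1.33 in naive, 27.3 ± 0.798 with both factors and 63.9 ± 0.287 in STIA libraries.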
